A study of Homo sapiens with 16 samples.

Results

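Aminoacyl-tRNA synthetases are the enzymes that join each amino acid to its tRNA, the step that lets a ribosome read the genetic code. Of 36337 gene symbols on the arrays, 36 were taken by name, with the probe of the highest mean over the 16 arrays standing for each gene. The 20 symbols of the cytosolic set were AARS, CARS, DARS, EPRS, FARSA, FARSB, GARS, HARS, IARS, KARS, LARS, MARS, NARS, QARS, RARS, SARS, TARS, VARS, WARS and YARS, among which GARS and KARS also supply the mitochondrial enzyme. The 16 symbols of the mitochondrial set end in ARS2 and were AARS2, CARS2, EARS2, FARS2, HARS2, IARS2, LARS2, MARS2, NARS2, PARS2, RARS2, SARS2, TARS2, VARS2, WARS2 and YARS2. The letter before ARS names the amino acid, so that AARS charges alanine, GARS glycine, YARS tyrosine and WARS tryptophan, while EPRS charges both glutamate and proline and FARSA and FARSB are the subunits of the phenylalanine enzyme. All 36 genes passed the filter on dim probes in both cell lines, and 35 of them were well above background on every array.

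All human synthetases are encoded in the nucleus, and mitochondria, which translate their own small genome, import a separate set of enzymes for most amino acids. Plasma cells and myeloma cells secrete large amounts of immunoglobulin and have a high demand for protein synthesis. When charged tRNA runs short, the kinase GCN2 phosphorylates eIF2, the transcription factor ATF4 is translated more, and ATF4 is known to activate genes for amino acid synthesis, amino acid transport and many cytosolic synthetases.

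The cells were those of RPMI-8226 and MM.1S, human lines established from multiple myeloma. Cultures of each line received the solvent DMSO, GSK126 at 1 µM, UNC0638 at 1 µM, or both inhibitors at 1 µM each, for 6 days, with 2 biological replicates in each of the 8 groups. GSK126 inhibits EZH2, which methylates H3K27, and UNC0638 inhibits G9a, which methylates H3K9. RNA of whole cultures was hybridised to 1-colour arrays, so fewer cells of a type and less RNA per cell cannot be told apart.

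A level here is the log2 intensity of a probe minus the 75th percentile of its array, and a difference of mean levels between groups is a log2 fold change. Spots well above background made up 46.5% to 49.7% of an array in RPMI-8226 cells and 49.9% to 52.8% in MM.1S cells. Each cell line was on 1 slide and in 1 scan, so cell line and slide cannot be told apart. All 8 plasma cell markers examined, among them SDC1, TNFRSF17 and XBP1, were above background on every array of both lines. Of 11 markers of T cells, monocytes, epithelium and fibroblasts on the arrays, CD3D, CD14 and KRT18 were above background on all 16 arrays too, and CD3G, CSF1R, EPCAM and DCN on all 8 of RPMI-8226, and their part in the results was not tested. limma was fitted over the 8 arrays of a line, and a gene was called at an adjusted p under 0.05. The 3 comparisons with DMSO share the same DMSO arrays. With 2 cultures per group, each p-value sets a difference against a spread estimated over all groups in the fit. It speaks for these samples only.

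RefSeq promoters, 250 bases before to 50 after the start of a gene on GRCh38.p14, were found for 30 of the 36 genes and read for the letters TGATGNAAN on either strand. This is the C/EBP-ATF response element (CARE) that ATF4 binds. The letters were present in 6 of 16 cytosolic promoters, 1 of 14 mitochondrial promoters and 3.61% of all 35116 promoters in the table. The windows around these matches are shown because the genes carrying them can be compared with the rest in the values that follow. They are written 5′ to 3′ along the gene, with the match in capitals.
AARS promoter, chr16:70289661-70289719, minus strand: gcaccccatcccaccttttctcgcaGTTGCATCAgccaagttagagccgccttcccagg
CARS promoter, chr11:3057408-3057436, minus strand: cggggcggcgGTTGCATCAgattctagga
IARS promoter, chr9:92293698-92293736, minus strand: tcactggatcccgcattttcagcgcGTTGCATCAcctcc
MARS promoter, chr12:57488053-57488081, plus strand: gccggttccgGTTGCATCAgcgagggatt
NARS promoter, chr18:57621804-57621832, minus strand: ctacgctctcTGATGCAACgccggaatcg
TARS promoter, chr5:33440956-33440984, plus strand: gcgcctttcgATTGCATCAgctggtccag
YARS2 promoter, chr12:32756061-32756119, minus strand: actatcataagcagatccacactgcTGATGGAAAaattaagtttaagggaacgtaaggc
The match began 188 bases before the start of AARS, 14 before that of IARS, 5 before that of MARS and 3 before that of CARS, and 1 and 14 bases after the starts of TARS and NARS. In 5 of these 6 cytosolic promoters the element ran against the gene and in NARS it ran with the gene. For YARS2 it lay 197 bases before the start. A match is a description of the letters and not of binding.

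In MM.1S cells, the combination of GSK126 and UNC0638 lowered almost the whole cytosolic set. limma called 19 of 20 cytosolic synthetases lower and 0 higher than DMSO, and the remaining member, DARS, changed by -0.11 (SE 0.08, limma adjusted p = 0.26). Of the mitochondrial set, 12 of 16 were called lower and 0 higher. Over all 25100 probes tested, 31.5% were called lower and 22.2% higher. The median log2 fold change was -1.06 for the cytosolic set (range -1.97 to -0.11), -0.41 for the mitochondrial set (range -1.13 to 0.01 without MARS2, which was too dim with the combination) and -0.12 for all probes. Every combination array lay below both DMSO arrays for 20 of 20 cytosolic and 15 of 16 mitochondrial genes, compared with 46.0% of all probes.

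**Figure D1:**
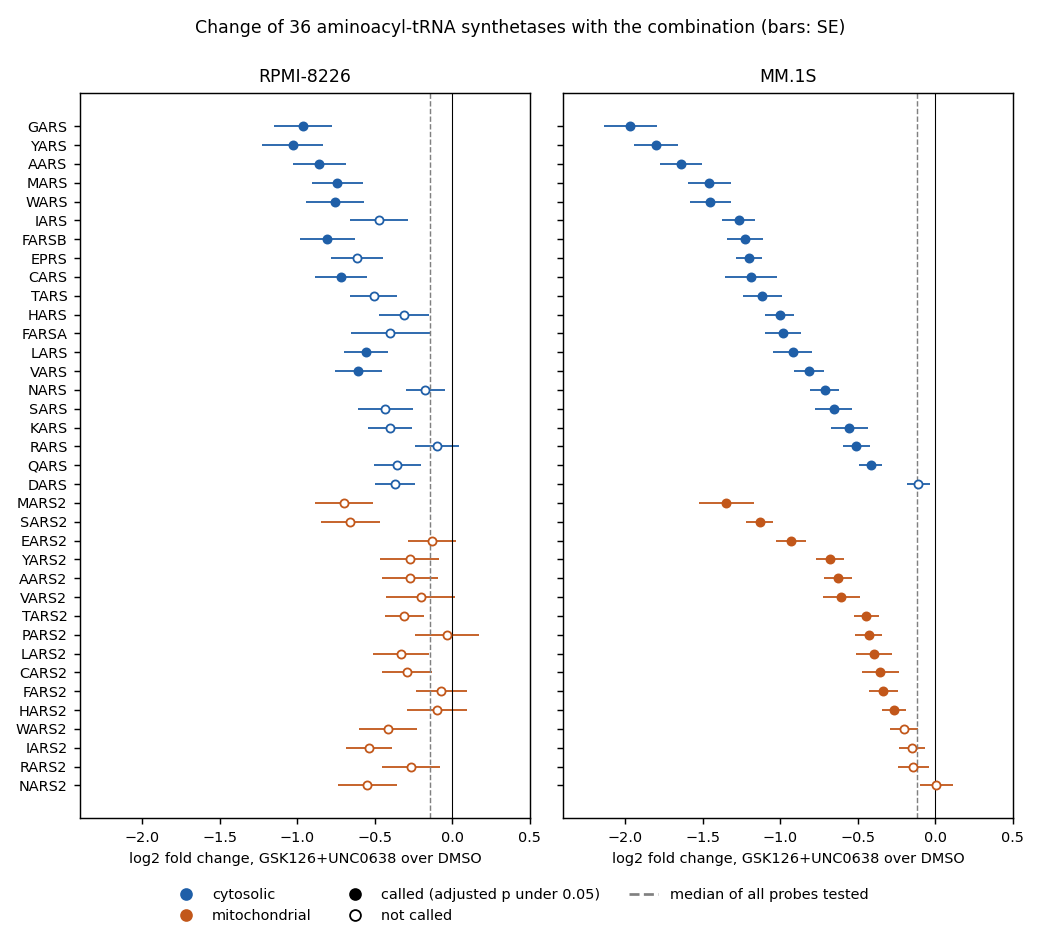
Log2 fold change of each of the 36 synthetases with GSK126+UNC0638 over DMSO in RPMI-8226 (left) and MM.1S (right), with bars for the SE of the limma fit over 8 arrays, blue for cytosolic and orange for mitochondrial genes. Filled points were called, which held for 19 cytosolic and 12 mitochondrial genes in MM.1S and 9 and 0 in RPMI-8226, and the dashed line is the median of all probes tested.

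Many cytosolic synthetases are bright on these arrays. In MM.1S cells 14 of the 20 cytosolic genes and 5 of the 16 mitochondrial genes were among the brightest 20% of the probes tested. The median log2 fold change of all 5020 probes in that brightest part was -0.38, and 57.1% of them were called lower. The part of brightness in the difference between the 2 sets was not tested. When the 75th percentile was taken over probes detected on all arrays, every probe moved up by the same amount and the median of all probes went from -0.12 to 0.07. Relative to the median of all probes, the cytosolic and mitochondrial medians were -0.94 and -0.30, and with quantile normalization -0.70 and -0.22.

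The glycyl-tRNA synthetase GARS fell the most in MM.1S cells. Its levels were 2.94 and 3.36 with DMSO, 1.88 and 2.20 with GSK126, 1.79 and 1.71 with UNC0638 and 1.24 and 1.12 with the combination. Both arrays of every treated group lay below both DMSO arrays, and the combination arrays were the lowest. The log2 fold change with the combination was -1.97 (SE 0.17, limma adjusted p = 0.000467), or 3.91-fold lower. YARS followed, with levels of 1.73 and 1.87 with DMSO, 0.70 and 1.02 with GSK126, 0.60 and 0.51 with UNC0638 and 0.12 and -0.12 with the combination. The same order of groups was seen, with a log2 fold change of -1.80 (SE 0.14, limma adjusted p = 0.000381) with the combination. AARS, whose promoter carried a CARE match, had levels of 1.67 and 1.93 with DMSO, 0.72 and 0.96 with GSK126, 0.78 and 0.67 with UNC0638 and 0.24 and 0.08 with the combination and fell by 1.64 on the log2 scale (SE 0.14, limma adjusted p = 0.000411). The groups did not overlap with DMSO in any of these 3 genes.

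MARS loads methionine on both initiator and elongator tRNA. Its MM.1S levels were 4.43 and 4.60 with DMSO, 3.55 and 3.85 with GSK126, 3.43 and 3.54 with UNC0638 and 2.95 and 3.16 with the combination, with a log2 fold change of -1.46 (SE 0.14, limma adjusted p = 0.000574). WARS, the tryptophan enzyme, is unusual among synthetases because interferon gamma induces it. WARS levels were 1.68 and 1.90 with DMSO, 0.99 and 1.11 with GSK126, 0.96 and 0.80 with UNC0638 and 0.46 and 0.22 with the combination, which is a log2 fold change of -1.45 (SE 0.13, limma adjusted p = 0.000492) for the combination. All 6 treated WARS arrays lay below both DMSO arrays. FARSB levels were 3.02 and 2.86 with DMSO, 2.60 and 2.57 with GSK126, 2.56 and 2.42 with UNC0638 and 1.84 and 1.59 with the combination. CARS, the cysteine enzyme, had levels of 0.08 and 0.58 with DMSO, -0.38 and -0.30 with GSK126, -0.57 and -0.75 with UNC0638 and -0.84 and -0.88 with the combination. These 2 genes fell by 1.23 and 1.19 on the log2 scale with the combination (limma adjusted p = 0.000587 and 0.00209), and neither overlapped with DMSO in any treated group. LARS, which charges leucine, had levels of 2.49 and 2.35 with DMSO, 2.20 and 1.93 with GSK126, 1.80 and 1.62 with UNC0638 and 1.52 and 1.48 with the combination. VARS, which charges valine, had levels of 5.19 and 5.04 with DMSO, 4.79 and 4.88 with GSK126, 4.74 and 4.80 with UNC0638 and 4.38 and 4.23 with the combination. Both fell by less than the genes above, with log2 fold changes of -0.92 and -0.81 (limma adjusted p = 0.00174 and 0.00113).

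The other 10 cytosolic genes called in MM.1S cells were EPRS, FARSA, HARS, IARS, KARS, NARS, QARS, RARS, SARS and TARS. Their log2 fold changes with the combination ran from -1.27 for IARS to -0.42 for QARS. All 6 genes with a CARE match, AARS, CARS, IARS, MARS, NARS and TARS, were called lower, with a median of -1.23 (range -1.64 to -0.71). The 10 cytosolic genes whose promoters held no match were also all called lower, with a median of -0.99 (range -1.97 to -0.42). GARS and WARS, among the genes that fell most, were in the group without a match, and DARS, LARS, VARS and YARS were not read for the motif. All 16 cytosolic promoters read belonged to genes called with the combination in MM.1S cells, so called and uncalled genes could not be compared here.

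DARS, the aspartate enzyme, was the 1 cytosolic gene not called. Its MM.1S levels were 4.30 and 4.38 with DMSO, 4.31 and 4.32 with GSK126, 4.31 and 4.37 with UNC0638 and 4.24 and 4.21 with the combination, a span that hardly moved between groups, and both combination arrays were only slightly below DMSO. The direction of DARS turned with the percentile over probes detected on all arrays, where it lay above 0. Among the smallest called changes, KARS, which serves both compartments, and QARS and RARS belong with DARS to the multisynthetase complex, a cytosolic assembly of synthetases held together by AIMP1, AIMP2 and EEF1E1. The 8 complex members (DARS, EPRS, IARS, KARS, LARS, MARS, QARS and RARS) had a median log2 fold change of -0.74 with the combination in MM.1S cells, with 7 called lower. The other 12 cytosolic genes had a median of -1.15, with 12 called lower. Within the complex, IARS, EPRS and MARS fell by more than 1 on the log2 scale, so members of one assembly did not change by one amount. In RPMI-8226 cells the medians were -0.44 for complex members, 2 of 8 called lower, and -0.66 for the others, 7 of 12 called lower. The difference between complex members and the others was not tested.

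**Figure D2:**
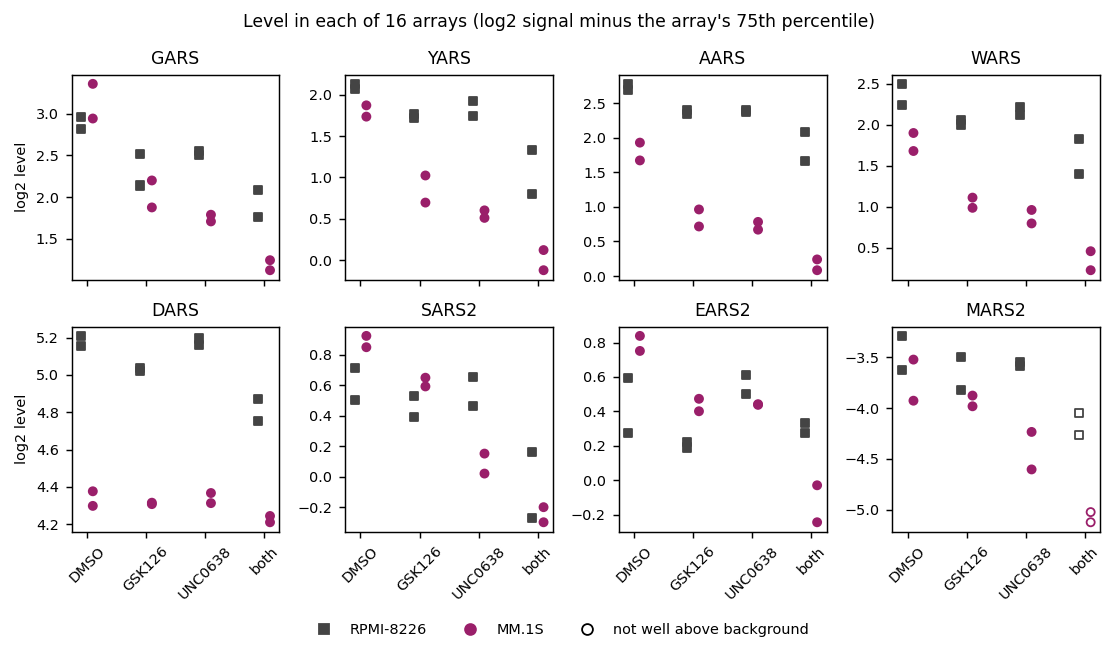
Levels (log2 intensity minus the 75th percentile of the array) of 8 synthetases on each of the 16 arrays, by treatment, with squares for RPMI-8226 and circles for MM.1S and open symbols where the probe was not well above background. GARS, YARS, AARS and WARS were lowest with the combination in both lines, DARS stayed between 4.21 and 4.38 in MM.1S, and MARS2 was not well above background on any combination array.

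The mitochondrial genes that fell most in MM.1S cells were MARS2, SARS2, EARS2, YARS2 and AARS2. SARS2, which charges serine in mitochondria, had MM.1S levels of 0.85 and 0.92 with DMSO, 0.65 and 0.59 with GSK126, 0.15 and 0.02 with UNC0638 and -0.20 and -0.30 with the combination. The UNC0638 and combination arrays were clearly below DMSO, and the GSK126 arrays only a little. Its log2 fold changes were -0.80 (SE 0.09, limma adjusted p = 0.00328) with UNC0638 and -1.13 (SE 0.09, limma adjusted p = 0.000358) with the combination. EARS2, the mitochondrial glutamate enzyme, had levels of 0.75 and 0.84 with DMSO, 0.47 and 0.40 with GSK126, 0.44 and 0.44 with UNC0638 and -0.24 and -0.03 with the combination, and fell with the combination by 0.93 on the log2 scale (SE 0.10, limma adjusted p = 0.000783). All 6 treated EARS2 arrays lay below both DMSO arrays. YARS2, the 1 mitochondrial gene with a CARE match, had levels of 1.84 and 1.69 with DMSO, 1.56 and 1.62 with GSK126, 1.38 and 1.40 with UNC0638 and 1.03 and 1.14 with the combination. Its log2 fold change with the combination was -0.68 (SE 0.09, limma adjusted p = 0.00156). AARS2 had levels of 3.07 and 2.99 with DMSO, 2.91 and 2.83 with GSK126, 2.65 and 2.77 with UNC0638 and 2.46 and 2.35 with the combination, with a log2 fold change of -0.63 (SE 0.09, limma adjusted p = 0.00218). For both, every treated array was below DMSO.

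MARS2 was the dimmest member and the only 1 of the 36 that was not above background on every array. Its MM.1S levels were -3.52 and -3.93 with DMSO, -3.88 and -3.98 with GSK126, -4.23 and -4.60 with UNC0638 and -5.02 and -5.12 with the combination, and on both combination arrays the probe was not well above background. MARS2 was called lower with the combination in MM.1S cells (limma adjusted p = 0.00156). For the size of its fall, each combination array gave the signal of the MARS2 probe or a floor, if the floor was larger. The floor was the dimmest signal that was well above background on that array. The mean of these values was 2.17-fold below the DMSO mean with the main processing. This is an estimate and not a strict lower bound, because the floor is not a detection limit and the spread of the DMSO arrays does not enter it. Under the alternatives to this processing the log2 fold change of MARS2 ran from -1.58 to -0.37, so the value holds for the main processing only. In RPMI-8226 cells both combination arrays were again not well above background. There the MARS2 probe was not dimmer than the floor, so its own mean was used. Its 1.62-fold fall is also an estimate from dim signals (limma adjusted p = 0.058, not called). The RPMI-8226 levels were -3.29 and -3.63 with DMSO, -3.82 and -3.50 with GSK126, -3.54 and -3.58 with UNC0638 and -4.27 and -4.05 with the combination.

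The other mitochondrial genes called lower in MM.1S cells were CARS2, FARS2, HARS2, LARS2, PARS2, TARS2 and VARS2, with log2 fold changes from -0.61 for VARS2 to -0.27 for HARS2. IARS2, NARS2, RARS2 and WARS2 were not called, at -0.15, 0.01, -0.14 and -0.20. With the 75th percentile over probes detected on all arrays, 7 mitochondrial genes were called lower in place of 12.

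Genes for the same amino acid were set side by side. For 13 amino acids a single cytosolic gene has a single mitochondrial partner among the members. In MM.1S cells the cytosolic gene had the lower log2 fold change with the combination in 12 of 13 pairs, with a median difference of -0.72. The widest gap was that of tryptophan, where WARS was at -1.45 and WARS2 at -0.20. Serine was the exception, with SARS at -0.65 and SARS2 at -1.13. In RPMI-8226 cells the cytosolic gene was the lower one in 9 of 13 pairs, with a median difference of -0.21. Asparagine, isoleucine, arginine and serine went the other way, as with NARS at -0.17 and NARS2 at -0.55. For methionine, MARS2 was not well above background with the combination in either line, so its point is not fully measured. The counts describe these pairs and were not tested.

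**Figure D3:**
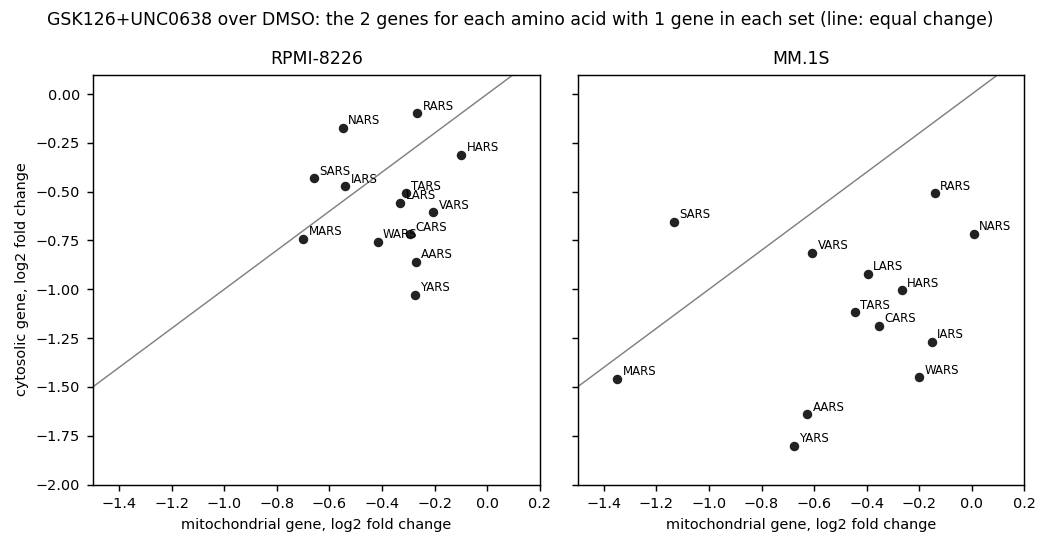
Log2 fold change with GSK126+UNC0638 over DMSO of the cytosolic gene (vertical axis) against its mitochondrial partner (horizontal axis) for 13 amino acids, named by the cytosolic gene, with a line of equal change. In MM.1S 12 of 13 points lie below the line and SARS above it, and in RPMI-8226 9 of 13 lie below it.

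In RPMI-8226 cells the combination lowered part of the cytosolic set. With the combination limma called 9 of 20 cytosolic synthetases lower and 0 higher, where 5.45% of all 23196 probes were called lower and 7.10% higher. They were AARS, CARS, FARSB, GARS, LARS, MARS, VARS, WARS and YARS, and each of them was also called lower in MM.1S cells. Of the cytosolic genes with a CARE match 3 of 6 were called, and of those without a match 3 of 10. Their medians were -0.61 and -0.42, and the difference was not tested. Of the mitochondrial set 0 of 16 were called by limma, with 5 at an unadjusted p under 0.05. The median log2 fold change was -0.53 for the cytosolic set (range -1.03 to -0.10), -0.28 for the mitochondrial set (range -0.66 to -0.03 without MARS2) and -0.14 for all probes. Every combination array lay below both DMSO arrays for 19 of 20 cytosolic and 11 of 16 mitochondrial genes, compared with 40.2% of all probes. The brightest 20% of probes held 14 cytosolic genes here too, and the median log2 fold change of those probes was -0.26. Relative to the median of all probes, the cytosolic and mitochondrial medians were -0.39 and -0.14, and with quantile normalization -0.21 and -0.03. With the percentile over probes detected on all arrays, 1 cytosolic and 4 mitochondrial genes lay above 0.

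Whether same-numbered cultures of RPMI-8226 were handled together is not known, because the labels give only a number. The main fit had no block. With the replicate number as a block in the limma fit, the cytosolic count was again 9, the same 9 genes. That fit called 2 mitochondrial genes lower in place of 0, MARS2 and NARS2 (limma adjusted p = 0.0498 and 0.0438 with the block). The mitochondrial count of 0 therefore depends on leaving out the block. The 9 calls were near the threshold. Without replicate 1 or replicate 2 of DMSO, or without replicate 1 of the combination, 0 cytosolic genes were called, without replicate 2 of the combination 5, and without either UNC0638 array 1, and none of the 9 changed direction under any of these. With quantile normalization 5 were called, with the percentile over probes detected on all arrays 4, and with no filter on dim probes 0.

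YARS fell the most in RPMI-8226 cells. Its levels were 2.06 and 2.13 with DMSO, 1.71 and 1.76 with GSK126, 1.75 and 1.92 with UNC0638 and 0.80 and 1.33 with the combination. Both combination arrays lay below all other arrays, and the log2 fold change was -1.03 (SE 0.20, limma adjusted p = 0.0226). GARS levels were 2.96 and 2.82 with DMSO, 2.14 and 2.51 with GSK126, 2.56 and 2.51 with UNC0638 and 1.77 and 2.08 with the combination, with a log2 fold change of -0.96 (SE 0.19, limma adjusted p = 0.0232). AARS levels were 2.69 and 2.78 with DMSO, 2.34 and 2.41 with GSK126, 2.38 and 2.40 with UNC0638 and 1.67 and 2.09 with the combination, with a log2 fold change of -0.86 (SE 0.17, limma adjusted p = 0.0253). In all 3 genes the combination replicates were further apart than the DMSO replicates, replicate 1 being the lower. FARSB levels were 3.44 and 3.30 with DMSO, 2.83 and 3.11 with GSK126, 3.03 and 3.24 with UNC0638 and 2.43 and 2.69 with the combination. WARS levels were 2.50 and 2.24 with DMSO, 2.06 and 2.0 with GSK126, 2.12 and 2.22 with UNC0638 and 1.40 and 1.83 with the combination. FARSB changed by -0.81 (SE 0.18, limma adjusted p = 0.034) and WARS by -0.76 (SE 0.19, limma adjusted p = 0.0468). Both were below DMSO on every treated array.

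MARS in RPMI-8226 cells had levels of 4.44 and 4.54 with DMSO, 4.42 and 4.29 with GSK126, 4.29 and 4.28 with UNC0638 and 3.57 and 3.93 with the combination, and the combination arrays were the lowest. CARS levels were -0.23 and -0.04 with DMSO, -0.82 and -0.44 with GSK126, -0.86 and -0.81 with UNC0638 and -0.86 and -0.85 with the combination, so that the UNC0638 arrays were as low as the combination arrays. LARS levels were 2.63 and 2.63 with DMSO, 2.26 and 2.50 with GSK126, 2.54 and 2.50 with UNC0638 and 2.03 and 2.11 with the combination, again lowest with the combination. VARS levels were 5.71 and 5.77 with DMSO, 5.82 and 5.71 with GSK126, 5.52 and 5.65 with UNC0638 and 4.99 and 5.27 with the combination. VARS was at the DMSO level with GSK126 and below it with the combination. All 4 genes had both combination arrays below both DMSO arrays. The log2 fold changes with the combination were -0.74 for MARS, -0.72 for CARS, -0.56 for LARS and -0.61 for VARS, with limma adjusted p of 0.0348, 0.0418, 0.0497 and 0.0494. Of the mitochondrial genes described for MM.1S, SARS2 had RPMI-8226 levels of 0.50 and 0.71 with DMSO, 0.53 and 0.39 with GSK126, 0.65 and 0.47 with UNC0638 and -0.27 and 0.16 with the combination. EARS2 had levels of 0.59 and 0.28 with DMSO, 0.22 and 0.19 with GSK126, 0.50 and 0.61 with UNC0638 and 0.28 and 0.33 with the combination, which overlapped between the DMSO and combination arrays. Neither was called, at -0.66 (SE 0.19, limma adjusted p = 0.0694) and -0.13 (SE 0.15, limma adjusted p = 0.595). YARS2 and AARS2 changed by -0.28 and -0.27 and were not called either.

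Each inhibitor alone lowered part of the cytosolic set in MM.1S cells. With GSK126 limma called 10 of 20 cytosolic genes lower (AARS, EPRS, GARS, HARS, IARS, MARS, NARS, TARS, WARS and YARS) and 0 higher, against 2.42% and 5.06% of all probes. Of the mitochondrial set 0 of 16 were called by limma, with 3 at an unadjusted p under 0.05. The medians were -0.50 for the cytosolic and -0.18 for the mitochondrial set. The largest changes were those of GARS, -1.11 (SE 0.17, limma adjusted p = 0.0215), and AARS, -0.96 (SE 0.14, limma adjusted p = 0.0175). Of the 6 genes with a CARE match, 5 were among the 10 called, and of the 10 genes without a match 4 were called. Without replicate 2 of DMSO or replicate 1 of GSK126 0 genes were called, and without replicate 2 of GSK126 or either UNC0638 array 4, and without replicate 1 of DMSO 6.

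With UNC0638 alone in MM.1S cells limma called 17 of 20 cytosolic genes lower, all but DARS, KARS and RARS, and 6 of 16 mitochondrial genes (AARS2, EARS2, MARS2, SARS2, WARS2 and YARS2), with 0 higher in either set. Over all probes 16.7% were called lower and 12.8% higher. The medians were -0.62 for the cytosolic and -0.23 for the mitochondrial set. Of the cytosolic genes with a CARE match 6 of 6 were called, and of those without a match 8 of 10. GARS changed by -1.40 (SE 0.17, limma adjusted p = 0.00431) and YARS by -1.25 (SE 0.14, limma adjusted p = 0.00377). WARS2 was called with UNC0638, at -0.31 (SE 0.09, limma adjusted p = 0.047), and not with the combination. Without 1 of the 4 DMSO and UNC0638 arrays, between 9 and 11 cytosolic genes were called, and without any 1 of the 8 arrays between 1 and 3 mitochondrial genes.

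In RPMI-8226 cells limma called 0 of 36 synthetases with GSK126, with 6 at an unadjusted p under 0.05, where 0.0560% of all probes were called lower and 0.543% higher. With UNC0638 it called 0 of 36, with 1 at an unadjusted p under 0.05, where 0.0819% were called lower and 0.556% higher. With GSK126 the cytosolic median was -0.29 and the mitochondrial median -0.22. With UNC0638 they were -0.13 and 0.04, and the median of all probes was -0.05. For cytosolic genes with and without a CARE match the medians were -0.29 and -0.36 with GSK126, and -0.16 and -0.13 with UNC0638. CARS had the lowest value with UNC0638, -0.70 (SE 0.17, limma adjusted p = 0.195), and was not called.

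**Figure D4:**
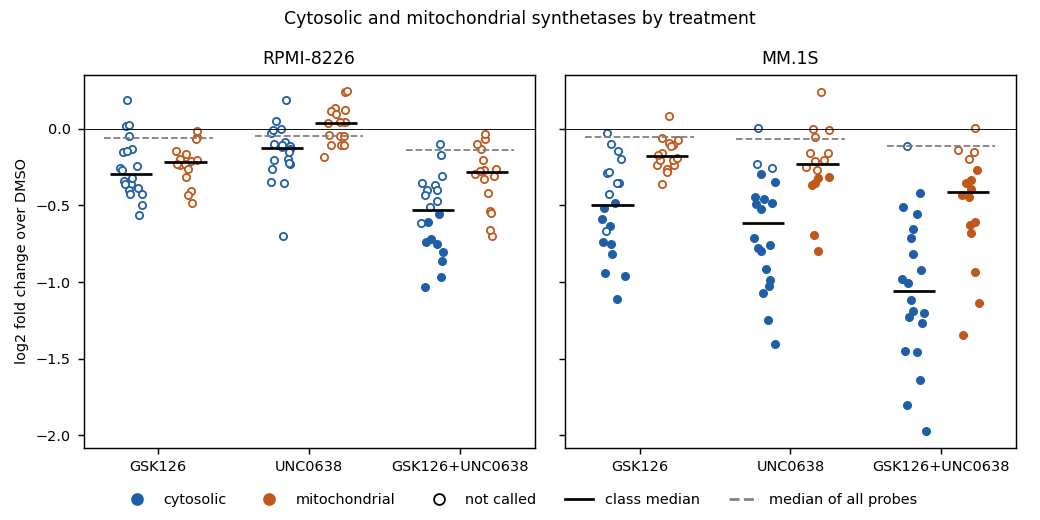
Log2 fold change over DMSO of the 20 cytosolic (blue) and 16 mitochondrial (orange) synthetases with each treatment in RPMI-8226 (left) and MM.1S (right), 1 point per gene, filled where called, with black bars for the median of a set and dashed lines for the median of all probes. The cytosolic median in MM.1S went from -0.50 with GSK126 and -0.62 with UNC0638 to -1.06 with the combination.

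The combination was then compared with each inhibitor directly. Against GSK126 in MM.1S cells limma called 20 synthetases, all lower, 14 cytosolic and 6 mitochondrial, compared with 36.8% of all probes called in either direction. FARSB and FARSA, the subunits of the phenylalanine enzyme, showed the 2 largest differences among the cytosolic genes not called with GSK126 alone, -0.87 (SE 0.12, limma adjusted p = 0.00382) and -0.69 (SE 0.12, limma adjusted p = 0.00731). Without replicate 2 of GSK126 the count was 12. Against UNC0638 it called 9, all lower, 8 cytosolic (AARS, EPRS, FARSA, FARSB, HARS, IARS, VARS and WARS) and EARS2, compared with 13.0% of all probes. This count fell to 0 without replicate 1 or 2 of UNC0638 or replicate 2 of the combination, and lay between 2 and 4 without any other array. In RPMI-8226 cells limma called 0 of 36 against GSK126, where 2.57% of all probes were called, and 0 of 36 against UNC0638, where 3.38% were called, with 6 and 15 at an unadjusted p under 0.05.

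A departure from additivity, the combination change minus the sum of the single changes on the log2 scale, was called by limma for 0 of 36 synthetases in either line. Of all probes 0.147% were called in RPMI-8226 and 0% in MM.1S cells. The departures ran from -0.45 to 0.55 in MM.1S cells, with 3 at an unadjusted p under 0.05, and from -0.50 to 0.48 in RPMI-8226 cells, with 0. The cytosolic median departure was 0.15 in MM.1S and -0.17 in RPMI-8226 cells. A departure that misses the threshold with 2 arrays per group does not show that the inhibitors acted additively.

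Whether a response differed between the lines was tested in 1 limma fit over the 16 arrays. For the combination 6 of 36 synthetases differed, a share near the 13.1% of all probes called. AARS, GARS, HARS, IARS, NARS and EARS2 all fell more in MM.1S cells, with differences (RPMI-8226 minus MM.1S) between 0.54 for NARS and 1.00 for GARS. HARS was at -0.31 in RPMI-8226 and -1.0 in MM.1S cells, a difference of 0.69 (SE 0.18, limma adjusted p = 0.0311). For GSK126 0 of 36 were called, where 0.776% of all probes were, and for UNC0638 0 of 36, where 2.85% were, with 6 and 15 at an unadjusted p under 0.05. With the replicate number as a block, MARS, TARS and NARS2 were called for the combination beside those 6, with NARS2 in the opposite direction, its change being the lower one in RPMI-8226 cells. The UNC0638 count rose to 3 without either combination array of RPMI-8226, and to 1 without replicate 1 of DMSO or either GSK126 array of that line. The combination count was 0 without replicate 2 of DMSO in MM.1S cells. It was between 1 and 3 without replicate 2 of DMSO or of the combination in RPMI-8226 cells, or without replicate 1 of DMSO or any GSK126 or combination array in MM.1S cells.

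The lines also differed with DMSO alone. In DMSO limma called 21 of 36 synthetases between the lines, 13 cytosolic and 8 mitochondrial, close to the 57.7% of all probes called. KARS showed the largest difference, with DMSO levels of 5.57 and 5.38 in RPMI-8226 cells and 3.17 and 3.25 in MM.1S cells, a difference of 2.27 (SE 0.13, limma adjusted p = 1.23e-07). NARS2, WARS2 and FARS2 were also higher in RPMI-8226 cells, by 1.65, 1.15 and 1.12. CARS, HARS, TARS, AARS2 and EARS2 were lower there, with differences from -0.60 for AARS2 and TARS to -0.36 for EARS2. Since each line was on its own slide, these differences and the slide cannot be told apart.

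The partners of the synthetases were described from lists of the same pathway, by counts and medians with the combination. Of all probes 31.5% were called lower in MM.1S and 5.45% in RPMI-8226, with medians of -0.12 and -0.14. Of the 3 scaffolds of the multisynthetase complex, AIMP1, AIMP2 and EEF1E1, 3 were called lower with the combination in MM.1S and 0 in RPMI-8226 cells (limma, with 0 at an unadjusted p under 0.05), with medians of -0.99 and -0.32. Of 12 other charging, editing and selenocysteine factors, 8 were lower in MM.1S and 1 in RPMI-8226 cells, the latter near the share of all probes. That 1 gene was XPOT, the exportin that carries tRNA out of the nucleus, at -0.61 (SE 0.15, limma adjusted p = 0.0459) in RPMI-8226 and -1.05 (SE 0.10, limma adjusted p = 0.000631) in MM.1S cells.

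Of the mitochondrial translation factors 9 of 11 were called lower in MM.1S cells with a median of -0.61, among them the elongation factor TUFM at -0.95 (SE 0.10, limma adjusted p = 0.000865), against 1 of 11 and -0.36 in RPMI-8226 cells. The list of mitochondrial tRNA processing and modification also held the mRNA factor LRPPRC and the mitochondrial transcription genes TFAM and POLRMT. Of its 14 genes, 12 were lower in MM.1S cells, with a median of -0.67. In RPMI-8226 cells 1 of 14 was lower, LRPPRC at -0.83 (SE 0.18, limma adjusted p = 0.0354), which is not a tRNA processing gene. Among 20 genes of RNA polymerase III transcription, which makes the tRNAs themselves, 13 were lower and 1 higher in MM.1S cells. The higher one was POLR3GL at 0.96 (SE 0.10, limma adjusted p = 0.00079), while its paralogue POLR3G, the alternative subunit, was at -1.05 (SE 0.19, limma adjusted p = 0.00522). In RPMI-8226 cells 1 of the 20 was lower, POLR3E. The single calls of these lists in RPMI-8226 are near the 5.45% of all probes called lower.

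The amino acid response genes that ATF4 is known to activate had the largest median fall of the lists in MM.1S cells. Of 31 tested, 25 were lower and 1, VLDLR, higher with the combination, with a median of -1.33. With GSK126 20 were lower and 1 higher, with a median of -0.84, beside 2.42% of all probes called lower. With UNC0638 26 were lower and 1 higher, with a median of -1.08, beside 16.7% of all probes called lower. ATF4 itself was at -0.95 (SE 0.09, limma adjusted p = 0.000614), and PSAT1, an enzyme of serine synthesis, at -3.10 (SE 0.24, limma adjusted p = 0.000358). In RPMI-8226 cells 6 of 32 were lower and 0 higher, with a median of -0.44. They were ASNS, which makes asparagine, at -1.17 (SE 0.17, limma adjusted p = 0.00978), and CHAC1, PSAT1, SHMT2, SLC6A9 and STC2. ATF4 was not called there, at -0.22 (SE 0.15, limma adjusted p = 0.336). In the fit over both lines the response to the combination differed for 23 of 33 genes of the list, with 21 higher in RPMI-8226 and 2 lower. Of all probes 13.1% differed. Among 13 eIF2 kinases and regulators tested, 9 were lower in MM.1S and 0 in RPMI-8226 cells, where limma gave 7 at an unadjusted p under 0.05, all but EIF2AK2 in the lower direction.

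WARS went against the other genes that interferon gamma induces. With the combination 5 of 6 of those tested were called higher in MM.1S cells, with a median of 0.79, beside 22.2% of all probes. In RPMI-8226 cells 4 of 7 were called higher, with a median of 1.32, beside 7.10% of all probes. In either line 0 were called lower. WARS was lower on both combination arrays than on both DMSO arrays in either line, at 0.46 and 0.22 against 1.68 and 1.90 in MM.1S and 1.40 and 1.83 against 2.50 and 2.24 in RPMI-8226 cells. Its mitochondrial partner WARS2 was not called with the combination in either line. No gamma-activated site, spelled TTCNNNGAA, was in the WARS promoter window, and 7.66% of all promoters held one. Of the synthetase promoters read, 2 of 16 cytosolic and 2 of 14 mitochondrial ones held it, WARS2 among them. A single window was read for each gene, and the promoters of the other interferon gamma genes were not compared. The part of the site in the WARS values was not tested.

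**Figure D5:**
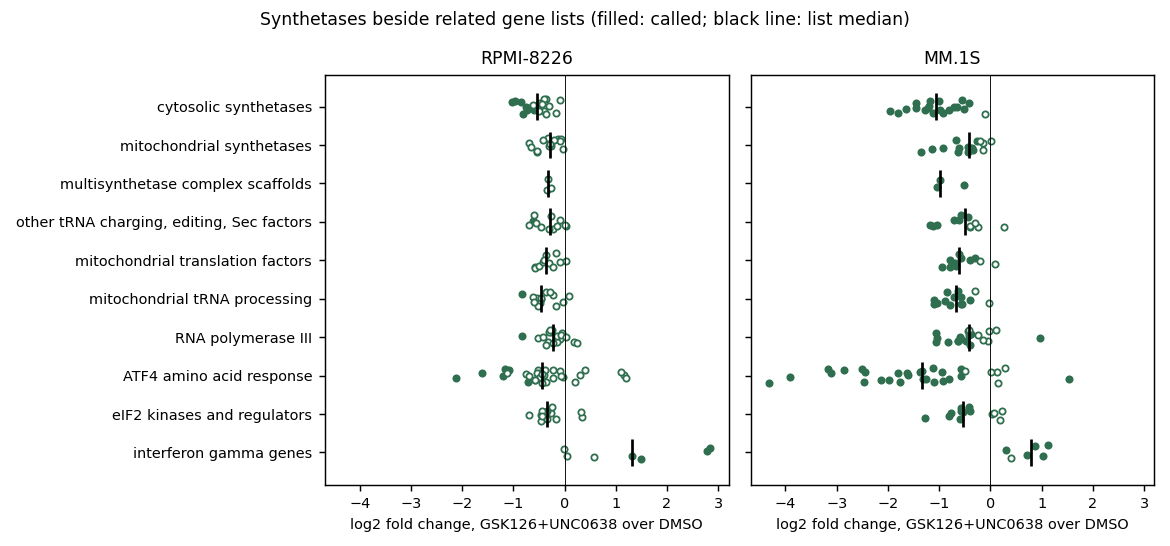
Log2 fold change with GSK126+UNC0638 over DMSO for the 2 synthetase sets and 8 related lists in RPMI-8226 (left) and MM.1S (right), 1 point per gene, filled where called, with a black line at the median of each list. The ATF4 list has the lowest median in MM.1S, -1.33, and the interferon gamma genes are the 1 list with a median above 0 in both lines.

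Several genes had more than 1 probe. All 3 probes of IARS were called lower in MM.1S cells, from -1.33 to -1.27, and in RPMI-8226 cells 1 of 3 was called, at -0.65, which was not the brightest. The second MARS probe was called in MM.1S cells, at -1.21, and not in RPMI-8226 cells, at -0.53. Of the 3 SARS probes, 2 were called lower in MM.1S cells and the third was not, at -0.32, while 1 was called in RPMI-8226 cells, at -0.59, annotated to a non-coding transcript. The second TARS2 probe did not pass the filter. When the probes of a gene were averaged, limma again called 9 cytosolic genes lower in RPMI-8226 and 19 in MM.1S cells with the combination.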

How the data were processed

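RNA of RPMI-8226 and MM.1S cells (8 groups by cell line and treatment, 2 replicates each) was labelled from 100 ng and hybridised by the authors to 16 1-colour arrays. The files deposited by the authors hold a linear intensity per spot, background-subtracted and detrended by Agilent Feature Extraction 10.7, and not normalized between arrays. Gene Spring GX is the array software named in the methods of the paper, which refer to earlier work and themselves give no filter, normalization or test. The results of the paper count probe sets changed more than 2-fold. The series table deposited by the authors held the same intensities, equal after rounding to 3 significant digits for 99.9956% of 939472 values.

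Control spots (4259 of 62976) and outlier spots (220 to 358 per array) were left out, log2 intensities were centred on the 75th percentile of the array, and spots of the same probe were averaged. Scaling of this kind removes a change that most probes share. A probe that was well above background in 1 whole group (both arrays) or more of a line was tested with limma (version 3.58.1, R 4.3.3; lmFit and eBayes) over the 8 arrays of the line, and over 16 arrays for differences between lines, where a probe kept in either line was tested. Benjamini-Hochberg adjustment ran over all probes tested, with a threshold of 0.05. The procedure was also run on simulated data with independent noise on each array and few changed probes. That setting is simpler than these data, so the run does not give the error rate here. The precision is limited by the number of arrays. The members, gene lists and rules were chosen with earlier results of these data known. Values in every array are given for members called with the combination in both lines, for the 5 cytosolic and 5 mitochondrial members called with the largest change in each line, and for WARS. DARS, the RPMI-8226 values of SARS2, EARS2 and MARS2, and the DMSO values of KARS were added after the values were seen. In RPMI-8226 the deviations of same-numbered arrays from the means of their groups correlated in 6 of 6 pairs of groups (r across probes 0.254 to 0.415). Pairing by number is an inference from these correlations, and its cause was not tested. Alternatives were quantile normalization, normexp (offset 50), the percentile over probes detected on all arrays, no filter, detection on all 8 arrays, the values of the series table, averaged probes, a replicate block, 1 fit over all 16 arrays, and each array left out. The slide could not be a block, each line being on 1 slide. Promoters were those of RefSeq on GRCh38.p14, and DARS, LARS, VARS, YARS, AARS2 and VARS2 had no entry.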

Additional observations from a re-analysis of the deposited data

Results flagged for a closer look

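For 6 of 36 synthetases, against 13.1% of all probes, the change with the combination differed between the cell lines in the limma fit over 16 arrays, each falling more in MM.1S cells. The difference, RPMI-8226 minus MM.1S on the log2 scale, was 0.78 for AARS (limma adjusted p = 0.0427), 1.00 for GARS (0.0318), 0.69 for HARS (0.0311), 0.80 for IARS (0.0377), 0.54 for NARS (0.0319) and 0.80 for EARS2 (0.0155). AARS and GARS were called lower than DMSO in both lines, and HARS, IARS, NARS and EARS2 in MM.1S and not in RPMI-8226. Each line was on its own slide, so the line and the slide cannot be told apart.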

How the results depend on the processing

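No synthetase was called higher than DMSO with the combination, and no member called with it changed direction, under any alternative run. Members that were not called did turn. With the percentile over detected probes 1 cytosolic and 3 mitochondrial genes lay above 0 in MM.1S, in place of 0 and 1, and 1 and 4 in RPMI-8226, in place of 0 and 0. With quantile normalization these counts were 1 and 3 in MM.1S and 2 and 0 in RPMI-8226. For the combination in MM.1S cells 22 of the 31 called members were called under every alternative, and in RPMI-8226 cells 0 of 9. The cytosolic count in MM.1S lay between 15 and 19. The cytosolic count in RPMI-8226 of 9 became 5 with quantile normalization, 4 with the percentile over detected probes, 0 with no filter, 15 with 1 fit over all arrays, and 0 to 7 without 1 array. The mitochondrial count there of 0 became 1 with quantile normalization, 2 with the replicate block and 5 with 1 fit. With 1 fit 3 members differed from GSK126 and 9 from UNC0638 in RPMI-8226, in place of 0 and 0. In MM.1S the mitochondrial count of 12 with the combination became 7 with the percentile over detected probes and 7 with 1 fit. The GSK126 cytosolic count of 10 became 0 with no filter and 0 to 7 without 1 array, and the mitochondrial count of 0 became 1 with normexp. The UNC0638 cytosolic count of 17 became 11 with quantile normalization, 11 with no filter and 9 to 17 without 1 array. Its mitochondrial count of 6 became 3, 1, 1 and 2 with quantile normalization, the percentile over detected probes, no filter and 1 fit, and 1 to 3 without 1 array. The count against GSK126 of 20 was 12 to 21 without 1 array. The count against UNC0638 of 9 became 5 with quantile normalization, 14 with normexp, 2 with the percentile, 0 with no filter, 2 with 1 fit and 0 to 4 without 1 array. Between the lines the UNC0638 count of 0 became 5 with normexp, 1 with the block and 0 to 3 without 1 array, the combination count of 6 became 1 with no filter and 0 to 9 without 1 array, and the DMSO count of 21 was 15 to 23 without 1 array. In each case the cause was not tested.

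In MM.1S cells same-numbered arrays correlated above 0.1 in 5 of 6 pairs of groups (r 0.0847 to 0.225), so the replicate numbers were not taken to pair the samples. With them as a block the counts against DMSO were 10 and 0 for GSK126, 17 and 7 for UNC0638 and 19 and 12 for the combination (cytosolic and mitochondrial), and 24 against GSK126 and 11 against UNC0638. The block changed no count in RPMI-8226 other than that of the mitochondrial genes. The cut of 0.1 was a choice, and the labels do not settle the pairing in either line.

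With 2 arrays per group a change near the threshold depended on single arrays, most of all in RPMI-8226. Signal over background limited MARS2 alone among the members.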
